A study of Mus musculus with 18 samples.

Results

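The threonine (Thr) and cysteine (Cys) transfer RNAs listed in the small RNA m5C table of adult mouse testis are described here. They were taken by name, as every site in a gene called tRNA-Thr or tRNA-Cys, whatever its level. This gave 14 of the 192 listed small RNA sites, in 7 of the 83 cytosolic tRNA genes with a site: 12 sites in 6 Thr genes and 2 sites in 1 Cys gene. The table holds 3 libraries from testes of adult Nsun7 knockout mice and 3 from adult WT mice, out of 18 libraries in the series. The labels give the genotype and the tissue but no allele, strain, age beyond adult, batch or animal number, so the 3 libraries of a genotype may share animals and p-values then measure only the spread between libraries. RNA 5-methylcytosine (m5C) was read after ultrafast bisulfite treatment, which converts unmethylated cytosine. The m5C level is the percentage of reads covering a site that still show C, and unmethylated cytosine left unconverted would count as m5C too.

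In cells, transfer RNAs receive m5C from several enzymes at different places. NSUN6 methylates the cytosine at position 72, near the 3′ end of the acceptor stem, in Thr and Cys tRNAs. NSUN2 methylates cytosines of the variable loop around positions 48 and 49 in many tRNAs. NSUN7 belongs to the same protein family and is expressed in testis, and the series title calls it catalytically inactive on RNA. Whether Thr and Cys tRNA sites keep their m5C without Nsun7 is the question the genotypes address here.

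Positions along the tRNA are not given in the table, so the kinds of site were told apart by spacing. The last site of a gene, where it lies 20 to 26 nt downstream of another, is called the acceptor candidate, and the others in that gene are called upstream sites. There were 6 acceptor candidates and 7 upstream sites, and the only site of tRNA-Thr-CGT-3-1 could not be placed. The upstream sites lay 23 or 24 nt before the acceptor candidate. Counting back from position 72, these spacings would put them at positions 49 and 48, if the acceptor candidate is position 72. The spacing was found in 6 of the 7 Thr and Cys genes and in 1 of the 76 other cytosolic tRNA genes, tRNA-His-GTG-3-1. Only genes with more than 1 listed site can show a spacing, and among those it was 6 of 6 Thr and Cys genes and 1 of 33 others. The window was chosen with earlier results of these data known, so these counts do not test whether the acceptor candidate is position 72. Downstream here means the higher coordinate, since every row carries a plus sign and no tRNA sequence was available to check it. In the 9 Asp-GTC, Gly-GCC and Val-AAC genes with a lone site and a cluster of sites, the lone site had the lower coordinate. An anticodon loop site and variable loop sites read from the 5′ end would be in that order. In the other 2 genes with a lone site and a cluster, tRNA-Thr-AGT-1-2 and tRNA-His-GTG-3-1, the lone site had the higher coordinate. The order in the 9 genes therefore does not settle the direction of the Thr and Cys genes. If a Thr or Cys gene ran toward lower coordinates, its acceptor candidate and upstream site would swap.

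Coverage differed widely between the genes. Summed over the 14 sites, it was 28020 to 35393 in the knockout libraries and 26115 to 39189 in the WT libraries, with a read counted at each site it covers. These sums were 0.676% ± 0.0806 of the coverage of all listed small RNA sites in the knockout and 0.650% ± 0.131 in WT (SD, n = 3). tRNA-Thr-CGT-2-1 alone took 88.6% ± 0.718 of the acceptor candidate coverage in the knockout and 85.4% ± 4.57 in WT (SD, n = 3). The single site of tRNA-Thr-CGT-3-1 had 3 to 16 reads. Near-identical gene copies cannot be told apart by their reads, and the sources used here do not say how such reads were assigned. RefSeq's GRCm38.p6 table names 57 Cys-GCA genes, 9 Thr-AGT, 4 Thr-CGT and 4 Thr-TGT genes, against 1, 2, 3 and 1 genes with a listed site, so each listed gene may stand for several. No genome of the files' build was given, so coordinates are those of the deposited table, whose build is GRCm39 per the submitters' processing notes.

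The acceptor candidates averaged 90.8% to 97.0% over the 6 libraries in 5 of the 6 genes, and 42.6% in the other, tRNA-Thr-CGT-1-1. In tRNA-Thr-TGT-3-1, which decodes ACA codons, the acceptor candidate (chromosome 11, position 48744517) stood at 97.5%, 96.6% and 96.6% in the knockout libraries and at 97.8%, 97.1% and 96.5% in the WT libraries, at coverage of 795 to 1430 reads. The genotypes overlapped, at 96.9% ± 0.547 in the knockout and 97.1% ± 0.622 in WT (SD, n = 3). In tRNA-Cys-GCA-3-1, the only Cys gene in the table, the acceptor candidate (chromosome 6, position 47956001) had 97.9%, 98.2% and 95.5% in the knockout and 95.7%, 96.0% and 97.6% in WT, at 134 to 258 reads. Its means were 97.2% ± 1.49 in the knockout and 96.4% ± 1.02 in WT (SD, n = 3), and again the libraries overlapped.

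The acceptor candidate of tRNA-Thr-CGT-2-1 (chromosome 11, position 79595546), the deepest of the set at 10401 to 17557 reads, stood at 93.6%, 93.9% and 93.3% in the knockout and at 92.8%, 93.8% and 93.5% in WT. At this depth counting error is small, with an exact binomial (Clopper-Pearson) 95% interval of 92.3% to 93.3% in WT replicate 1 and of 93.4% to 94.2% in WT replicate 2. The libraries of one genotype thus differed among themselves by more than counting error. Its dispersion in the quasi-binomial model, which is 1 for counting error alone, was 3.37. That of tRNA-Thr-AGT-1-2 (chromosome 11, position 68928751), one of the Thr tRNAs that read ACU and ACC codons, had 96.2%, 92.7% and 93.1% in the knockout and 92.2%, 92.5% and 92.1% in WT, at 261 to 498 reads. Here every knockout library lay above every WT library, by 0.187 points at the nearest, with means of 94.0% ± 1.89 in the knockout and 92.3% ± 0.222 in WT (SD, n = 3).

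In tRNA-Thr-AGT-4-1 the acceptor candidate (chromosome 13, position 22040263) had 100%, 91.3% and 75.0% in the knockout and 97.6%, 89.5% and 91.3% in WT. It rested on only 12 to 42 reads. The 75.0% of knockout replicate 3 was 9 of 12 reads, with an exact binomial 95% interval of 42.8% to 94.5%.

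tRNA-Thr-CGT-1-1 stood apart from these. Its acceptor candidate (chromosome 16, position 13255257) had 43.5%, 42.5% and 37.0% in the knockout and 43.8%, 45.3% and 43.7% in WT, at 277 to 375 reads. Every knockout library lay below every WT library, by 0.228 points at the nearest, with means of 41.0% ± 3.46 in the knockout and 44.3% ± 0.929 in WT (SD, n = 3). tRNA-Thr-CGT-1-1 and tRNA-Thr-CGT-2-1 carry the same anticodon, which pairs with ACG, yet their acceptor candidates averaged 42.6% and 93.5% over the 6 libraries.

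In the order of acceptor candidate levels over the 6 libraries, tRNA-Thr-TGT-3-1 came first (97.0% ± 0.536). It did not differ beyond the spread from tRNA-Cys-GCA-3-1 (96.8% ± 1.22), being higher in 3 of 6 libraries. tRNA-Cys-GCA-3-1 was above tRNA-Thr-CGT-2-1 (93.5% ± 0.377) in 6 of 6 libraries, by 3.35 points. tRNA-Thr-CGT-2-1 did not differ beyond the spread from tRNA-Thr-AGT-1-2 (93.1% ± 1.53), though it was higher in 5 of 6 libraries. Nor did tRNA-Thr-AGT-1-2 from tRNA-Thr-AGT-4-1 (90.8% ± 8.75), with the former higher in 4 of 6. tRNA-Thr-CGT-1-1 (42.6% ± 2.89) was below tRNA-Thr-AGT-4-1 in 6 of 6 libraries, by 48.2 points on average and 38.0 at the least (all SD, n = 6). Neighbours that differed in 6 of 6 libraries had an exact sign-flip p of 0.03125. After Benjamini-Hochberg adjustment over the 11 neighbour pairs of acceptor candidates and of upstream sites it was 0.0573. The order was taken from these same levels.

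**Figure D1:**
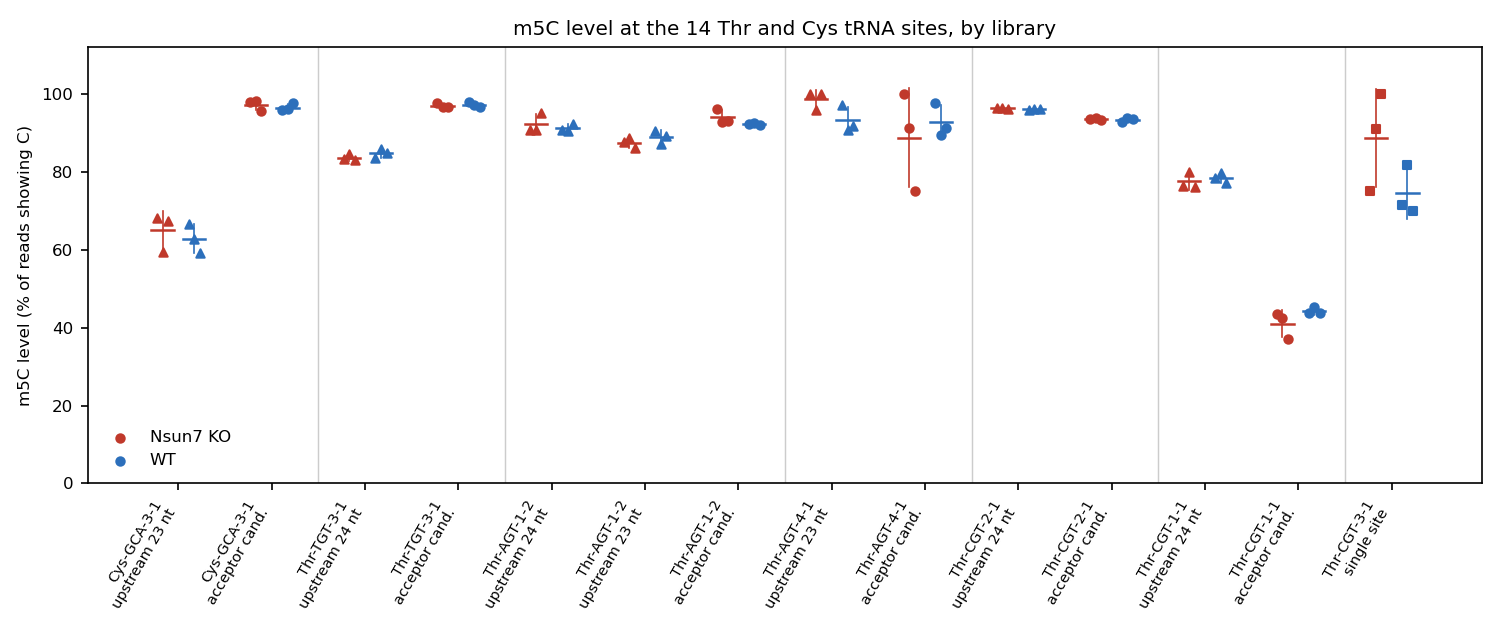
m5C level (% of reads showing C) at each of the 14 Thr and Cys sites, grouped by gene, with Nsun7 knockout libraries (red) left of WT libraries (blue). Each symbol is 1 library (circles, acceptor candidates; triangles, upstream sites; squares, the site that could not be placed), horizontal lines are means and vertical lines ± SD (n = 3), and the acceptor candidate of Thr-CGT-1-1 lies at 41.0% and 44.3% while the other acceptor candidates average 88.8% or more in either genotype.

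The upstream sites, candidates for the variable loop, spread over a different order of genes. The lowest was the Cys site (chromosome 6, position 47955978), with 68.1%, 59.4% and 67.4% in the knockout and 66.5%, 62.7% and 59.2% in WT, at 132 to 248 reads. Its libraries overlapped, with means of 65.0% ± 4.87 in the knockout and 62.8% ± 3.66 in WT (SD, n = 3). The upstream site of tRNA-Thr-CGT-1-1 (position 13255233) had 76.4%, 79.9% and 76.1% in the knockout and 78.3%, 79.6% and 77.2% in WT, at 243 to 304 reads. The genotypes overlapped there too. In tRNA-Thr-TGT-3-1 the upstream site (position 48744493) had 83.2%, 84.4% and 83.0% in the knockout and 83.5%, 85.8% and 84.8% in WT, at 786 to 1415 reads.

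The upstream site of tRNA-Thr-CGT-2-1 (position 79595522) stood at 96.3%, 96.3% and 96.1% in the knockout and at 95.8%, 96.1% and 96.0% in WT. It was the most tightly repeated of the 14, with SDs of 0.117 in the knockout and 0.162 in WT at 10352 to 17004 reads. In tRNA-Thr-AGT-4-1 the upstream site (position 22040240) had 100%, 95.8% and 100% in the knockout and 97.2%, 90.7% and 91.7% in WT on 14 to 43 reads, and the genotypes overlapped.

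tRNA-Thr-AGT-1-2 had adjacent upstream sites, the only Thr or Cys gene with 3 sites. The one at position 68928727, 24 nt before the acceptor candidate, had 90.8%, 90.7% and 95.2% in the knockout and 90.7%, 90.3% and 92.4% in WT. Its neighbour at position 68928728, 23 nt before, had 87.5%, 88.8% and 86.2% in the knockout and 90.5%, 87.2% and 89.2% in WT. The site further from the acceptor candidate was the higher of the adjacent sites in 6 of 6 libraries, by 3.45 points ± 2.98 (SD, n = 6), with a range of 0.120 to 9.01. It was also read less, with 73.0% to 83.8% of its neighbour's coverage, although the bases adjoin. Whether the missing reads bear on the level was not tested.

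Over the 6 libraries the upstream sites ran from tRNA-Thr-CGT-2-1 (96.1%), tRNA-Thr-AGT-4-1 (95.9%) and tRNA-Thr-AGT-1-2 (91.7% and 88.2%) to tRNA-Thr-TGT-3-1 (84.1%), tRNA-Thr-CGT-1-1 (77.9%) and tRNA-Cys-GCA-3-1 (63.9%). tRNA-Thr-CGT-2-1 and tRNA-Thr-AGT-4-1 did not differ beyond their spread. tRNA-Thr-AGT-4-1 was above the 24 nt site of tRNA-Thr-AGT-1-2 in 5 of 6 libraries. From there down, each site was below the one before it in 6 of 6 libraries (exact sign-flip p = 0.03125 each, 0.0573 after Benjamini-Hochberg adjustment over 11 neighbour pairs). This order, too, was taken from these same levels, so these p-values do not test it independently.

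Set against the mean of the upstream sites of its gene in the same library, the acceptor candidate was higher in 6 of 6 libraries in 3 genes and lower in 6 of 6 in 2. In tRNA-Cys-GCA-3-1 it was higher by 29.8, 38.9 and 28.1 points in the knockout libraries and by 29.2, 33.3 and 38.4 points in the WT libraries, which is 32.9 ± 4.74 points over all (SD, n = 6). In tRNA-Thr-TGT-3-1 it was higher by 12.9 ± 1.36 points and in tRNA-Thr-AGT-1-2 by 3.18 ± 2.08 points (SD, n = 6), each in 6 of 6 libraries. For tRNA-Thr-AGT-1-2 this holds against the mean of its adjacent upstream sites and against the 23 nt site, whereas against the 24 nt site alone the acceptor candidate was higher in 4 of 6 libraries and lower in replicate 3 of the knockout and of WT. The reverse held in tRNA-Thr-CGT-1-1 and tRNA-Thr-CGT-2-1. tRNA-Thr-CGT-1-1 had differences of -33.0, -37.4 and -39.1 points in the knockout libraries and of -34.5, -34.3 and -33.5 points in the WT libraries, its acceptor candidate being the lower each time. In tRNA-Thr-CGT-2-1 the acceptor candidate was also the lower in 6 of 6 libraries, with a difference of -2.62 ± 0.239 points (SD, n = 6). Each of these 5 genes had an exact sign-flip permutation p of 0.03125, the smallest 6 libraries can give, and 0.0375 after Benjamini-Hochberg adjustment over the 6 genes. These tests by gene were added after the values had been seen. tRNA-Thr-AGT-4-1 had a difference of -5.12 ± 9.90 points (SD, n = 6), higher in 1 library, lower in 4 and equal in the other (exact sign-flip p = 0.1875, the same after adjustment).

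Averaged over the 6 genes, these opposite differences nearly cancelled, at 0.996 points over the 6 libraries with a range of -3.78 to 2.57 (exact sign-flip permutation test, two-sided, p = 0.3125). Without the shallow tRNA-Thr-AGT-4-1, which alone fell below 30 reads, the mean was 2.22 points and p was 0.03125. Knockout replicate 3 was the only library with a negative mean, and without it the mean over 6 genes was 1.95.

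**Figure D2:**
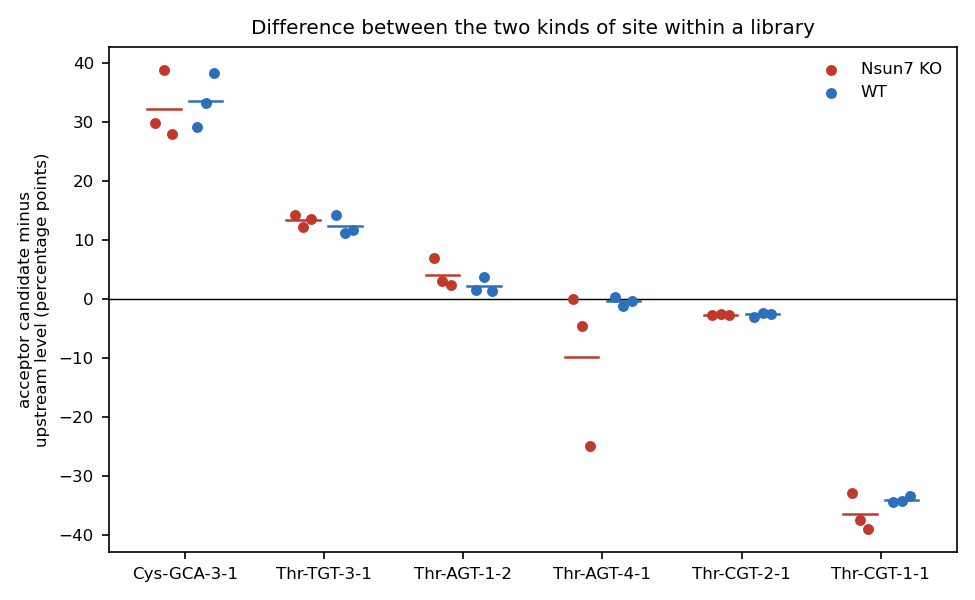
Level of the acceptor candidate minus the mean level of the upstream sites of the same gene in the same library (percentage points), Nsun7 knockout (red) left of WT (blue), 3 libraries each, with horizontal lines at the means. Cys-GCA-3-1, Thr-TGT-3-1 and Thr-AGT-1-2 lie above 0 in all 6 libraries and Thr-CGT-2-1 and Thr-CGT-1-1 below 0, and the lowest Thr-AGT-4-1 value, -25.0, is knockout replicate 3.

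This difference within a library was compared between genotypes in each gene. It was 32.3 ± 5.80 points in the knockout and 33.6 ± 4.60 in WT for tRNA-Cys-GCA-3-1, and 13.4 ± 1.10 and 12.4 ± 1.66 for knockout and WT in tRNA-Thr-TGT-3-1 (SD, n = 3). For tRNA-Thr-CGT-1-1 it was -36.5 ± 3.16 in the knockout and -34.1 ± 0.537 in WT. Exact permutation tests, two-sided, gave p of 0.3 to 0.8 over the 6 genes, and 0.75 or more after adjustment, where 3 against 3 libraries cannot go below 0.1. For the mean over genes the knockout minus WT value was -1.73 points, and the 9 library pairs, which give an exact 90% interval, lay between -6.30 and 1.24 (p = 0.7, exact permutation). Without knockout replicate 3 it was 0.224.

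Reads were not always equally many at the acceptor candidate and at the nearest upstream site. The acceptor candidate had more in 32 of 36 combinations of gene and library, and the 4 exceptions were all in tRNA-Thr-AGT-4-1. The ratio of coverage to the mean of the upstream sites was 1.02 on average in tRNA-Thr-TGT-3-1 and tRNA-Thr-CGT-2-1, 1.04 in tRNA-Cys-GCA-3-1, 1.19 ± 0.0530 in tRNA-Thr-CGT-1-1 and 1.31 ± 0.0472 in tRNA-Thr-AGT-1-2 (SD, n = 6). In tRNA-Thr-CGT-1-1, the C reads at the acceptor candidate alone came to 45.3% to 55.9% of all reads covering the upstream site, below that site's own level of 76.1% to 79.9%. In tRNA-Thr-CGT-2-1 the same C reads came to 93.3% to 97.0% of the upstream coverage, which overlaps that site's level of 95.8% to 96.3%. Whether unequal reads bear on either difference was not tested. The mean log2 coverage ratio was 0.130 ± 0.0348 in the knockout and 0.116 ± 0.0361 in WT (SD, n = 3; difference 0.0139, range over pairs -0.0513 to 0.0893, exact permutation p = 0.7).

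**Figure D3:**
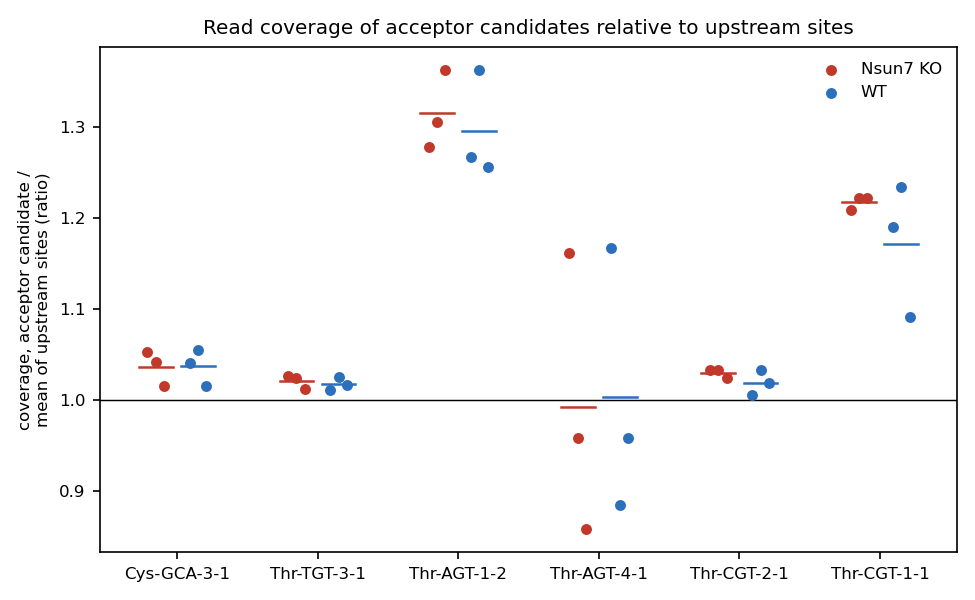
Coverage of the acceptor candidate divided by the mean coverage of the upstream sites of the same gene (ratio, axis not from 0), Nsun7 knockout (red) left of WT (blue), 3 libraries each, with horizontal lines at the means and at a ratio of 1. Thr-AGT-1-2 and Thr-CGT-1-1 lie at 1.31 and 1.19 on average, and Thr-AGT-4-1, with few reads, spreads from 0.857 to 1.17.

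Between genotypes, none of the 14 sites passed the site test. The C reads of the whole small RNA table were fitted site by site with a quasi-binomial model, which tested 184 sites and called 0, or 0.00%, at a Benjamini-Hochberg adjusted p under 0.05. At an unadjusted p under 0.05 it had 7 sites, or 3.80%, of which 0 were Thr or Cys sites. Adjusted p at the 14 sites ran from 0.799 to 0.992. limma on the levels, a linear model that shares the variance over sites, called 0 of 187 sites (0.00%), with adjusted p from 0.757 to 0.960 at the Thr and Cys sites. At the 13 sites that kept 10 reads or more in every library, the knockout was lower at 6 and higher at 7, and the median difference was 0.216 points, against 0.0134 over all 173 small RNA sites of that depth.

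The genotypes did not overlap at 2 of the 14 sites, both acceptor candidates, against 11.5% of all 192 sites. At the tRNA-Thr-CGT-1-1 site all knockout libraries were lower, as at 5.73% of all sites, and at the tRNA-Thr-AGT-1-2 site all were higher, as at another 5.73%, so 1 of 14 in each direction. Their differences were -3.27 points (range over pairs -8.30 to -0.228, adjusted p = 0.877 in the quasi-binomial model) and 1.72 points (range 0.187 to 4.04, adjusted p = 0.877). A single library carried much of each. Without knockout replicate 3, the tRNA-Thr-CGT-1-1 difference was -1.29, and without knockout replicate 1 the tRNA-Thr-AGT-1-2 difference was 0.638. The exact permutation p was 0.1 at both, the smallest that 3 against 3 libraries allow.

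How large a loss could be hidden was read from the 95% limma interval of knockout minus WT, given here as a percentage of the WT level. The lower end was -0.976% at the acceptor candidate of tRNA-Thr-CGT-2-1, -1.10% at that of tRNA-Thr-AGT-1-2, -1.66% at that of tRNA-Thr-TGT-3-1 and -1.89% at that of tRNA-Cys-GCA-3-1. It was -18.7% at the acceptor candidate of tRNA-Thr-CGT-1-1 and -24.2% at that of tRNA-Thr-AGT-4-1, where 1 library had 12 reads. Upstream sites had lower ends of -0.549% to -9.99%. The -0.549% was that of tRNA-Thr-AGT-4-1, on 14 to 43 reads, where the estimate itself was 5.42 points higher in the knockout. A loss of 50% of the WT level was outside the interval at all 14 sites and at 170 of 187 small RNA sites. The site of tRNA-Thr-CGT-3-1 (chromosome 13, position 21507055) had 75.0%, 90.9% and 100% in the knockout, the last on 3 reads, and 71.4%, 81.8% and 70.0% in WT. Its model left out the library with 3 reads and gave a difference of 8.54 points with a limma interval of -10.8 to 27.9.

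**Figure D4:**
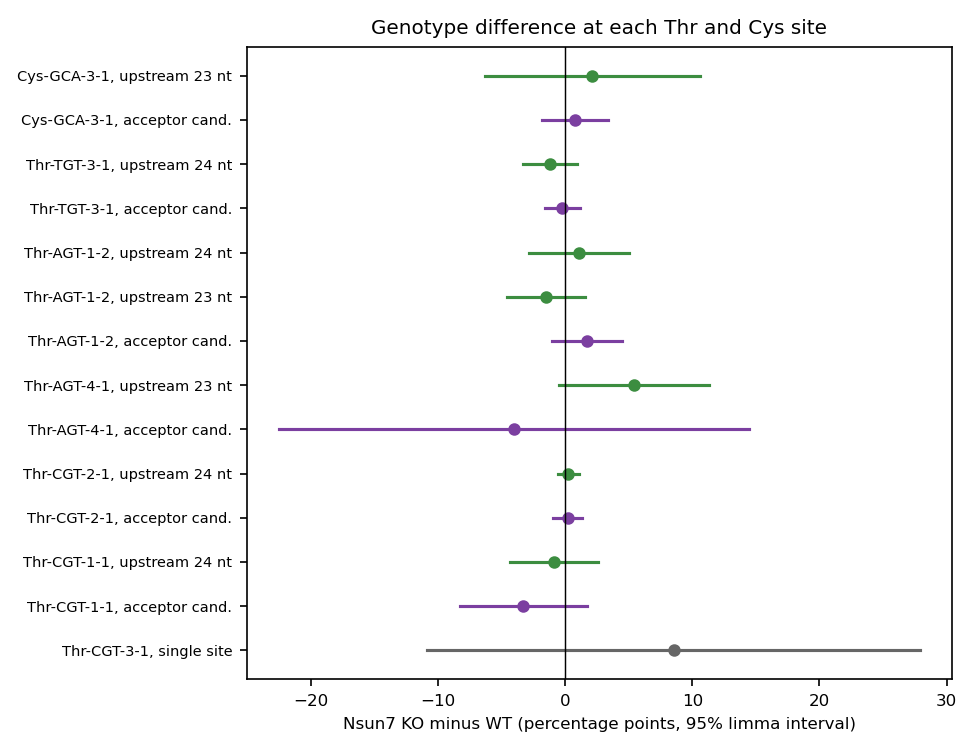
Nsun7 knockout minus WT m5C level (percentage points) at each Thr and Cys site, points with 95% limma intervals (purple, acceptor candidates; green, upstream sites; grey, the site that could not be placed, fitted without its 3-read library). All 14 intervals include 0, and the widest are those of Thr-CGT-3-1 and of the Thr-AGT-4-1 acceptor candidate.

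Averaged by kind over sites with 10 reads or more in every library, the acceptor candidates stood at 85.2% ± 3.22 in the knockout and 86.0% ± 0.524 in WT over 6 sites (SD, n = 3). The difference was -0.797 points, between -4.88 and 2.42 over the 9 library pairs (exact permutation p = 0.9). The upstream sites stood at 85.8% ± 0.659 in the knockout and 85.0% ± 0.919 in WT over 7 sites, which is 0.773 points higher in the knockout (pairs -1.02 to 1.93, exact permutation p = 0.3). Without knockout replicate 3, the library with the 12-read site, the acceptor difference was 0.943. By amino acid, the 11 Thr sites of that depth averaged 86.3% ± 1.54 in the knockout and 86.6% ± 0.626 in WT, a difference of -0.210 points (range -2.59 to 1.55, exact permutation p = 1). The 2 Cys sites averaged 81.1% ± 2.13 in the knockout and 79.6% ± 1.38 in WT, a difference of 1.47 points (range -2.33 to 4.61, exact permutation p = 0.4).

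On average, the Thr and Cys sites were more highly methylated than the other cytosolic tRNA sites in the table. At the same minimum depth, the 13 Thr and Cys sites exceeded the other 120 by 13.6 ± 1.56 points in the knockout and by 13.9 ± 1.65 points in WT (SD, n = 3). The excess was 12.2 to 15.8 points and positive in 6 of 6 libraries (exact sign-flip p = 0.03125, the smallest 6 libraries can give). The averages were 85.5% ± 1.41 for Thr and Cys sites against 71.9% ± 0.200 for the others in the knockout, and 85.5% ± 0.732 against 71.6% ± 0.955 in WT. The sign-flip test covers the spread between libraries, not between sites. Levels of 90% or more were also common elsewhere. Of the 120 other sites, 38 in the knockout and 33 in WT averaged that much, up to 99.8% in WT. Of the 13 Thr and Cys sites, 7 in the knockout and 8 in WT did. The excess compares listed sites, and the authors' choice of sites is not known. The other gene with the same spacing, tRNA-His-GTG-3-1, had its last site (chromosome 3, position 96343358) at 64.3%, 64.3% and 61.9% in the knockout and at 55.6%, 63.6% and 52.9% in WT, on 17 to 36 reads. Those values lie between the tRNA-Thr-CGT-1-1 acceptor candidate and the other 5.

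Coverage of the Thr and Cys sites, the denominator of the levels, was compared between genotypes over the whole table. In bulk RNA, fewer cells with a tRNA and less of it per cell cannot be told apart, and a bisulfite library also depends on which fragments are recovered. edgeR's quasi-likelihood test called 0 of 192 sites (0.00%) at a Benjamini-Hochberg adjusted p under 0.05. At an unadjusted p under 0.05 it had 13 sites, or 6.77%, with 0 of them Thr or Cys sites, and DESeq2 called 0. Log2 ratios of knockout to WT at the 14 sites ran from -0.44 to 0.21, with adjusted p in edgeR of 0.765 or more. The median was -0.14 over the 14 sites and 0.04 over all sites, and it was 0.00385 for the 14 without knockout replicate 3. That library had the lowest normalised coverage at 10 of the 14 sites, and WT replicate 1 at the other 4, which were those of tRNA-Thr-CGT-1-1 and tRNA-Thr-CGT-2-1. For the acceptor candidate of tRNA-Cys-GCA-3-1, TMM-normalised CPM (of the coverage summed over all small RNA sites) was 47.0, 49.2 and 31.8 in the knockout and 44.6, 48.1 and 46.7 in WT. For that of tRNA-Thr-CGT-2-1 it was 3064, 3365 and 2998 in the knockout and 1800, 3390 and 2977 in WT. Groups overlapped at all 14 sites.

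The mRNA table was searched for 18 genes of the pathway: the NSUN enzymes, the tRNA methyltransferase gene Trdmt1, m5C binders such as Alyref and Ybx1, the threonyl- and cysteinyl-tRNA synthetases, and the CCA-adding enzyme gene Trnt1. None (0 of 18) had a listed site among the 251 mRNA sites, so the mRNA table holds no m5C value for them.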

How the data were processed

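Per the labels' protocols, total RNA of testes was extracted with TRIzol, small RNA was separated on columns, treated with a bisulfite reagent and sequenced with a small RNA kit. The submitters' processing notes name GRCm39 and the tools Bowtie2, HISAT2, SAMtools, cutadapt and Trimmomatic. What each did, their versions and how sites were chosen are not given in the sources used here. Both deposited columns, coverage and C, hold read counts at each site, per the file headers. The deposited m5C level is a fraction that matched the authors' C count over coverage to within 0.005, and levels were recomputed as percentages. No sample column was left unmapped (0).

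The members, lists and tests were chosen with earlier results of these data known. All Thr and Cys sites are named. The site test was a quasi-binomial logistic model in R 4.3.3 on libraries with at least 10 reads, at least 2 per genotype, with the site's own dispersion and libraries fitted at 0% or 100% not counted in the residual degrees of freedom. It was adjusted over the whole small RNA table by Benjamini-Hochberg with a threshold of 0.05. limma 3.58.1 gave intervals, and edgeR 4.0.16 with TMM tested coverage (DESeq2 1.42.0 as an alternative). Class means used the sites that reached 10 reads in each of the 6 libraries, as 13 of the 14 did. Exact permutation and sign-flip tests ran over libraries and were two-sided. The site and coverage tests were checked on simulated data with changes larger than any seen at the Thr and Cys sites. Whether they would find changes as small as those reported here was not checked. Binomial intervals cover counting error only, and the labels name no molecular identifiers. Same-numbered libraries' m5C deviations over 173 small RNA sites correlated at 0.262, 0.643 and 0.499 (differently numbered, -0.554 to 0.310), a hint of pairing from the data that the labels do not state. For coverage the values were 0.294, 0.269 and 0.0584 (differently numbered, -0.335 to 0.210). The reported tests are unpaired, and fits with the replicate number as a block were run as alternatives.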

Additional observations from a re-analysis of the deposited data

How the results depend on the processing

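No Thr or Cys site was called under any alternative site model, which were coverage minimums of 5 and 20, moderated dispersions, dispersions not below 1, limma on levels and on log odds, and Fisher's exact test on pooled reads. That last test, which ignores the spread between libraries, called 24 small RNA sites against 0 in the quasi-binomial model. With the replicate number as a block the site model called 0 sites, and the block changed no call of the m5C results: paired differences were -0.797 points for acceptor candidates (exact sign-flip p = 1), 0.773 for upstream sites (0.5), -1.73 for the difference between them (0.75), -0.210 for Thr (1) and 1.47 for Cys (0.5), where 3 pairs cannot go below 0.25. In the coverage test the block called 6 sites, none a Thr or Cys site, against 0 without it. Leaving out the TMM factors moved the median log2 coverage ratio to -0.08 over all sites and -0.25 over the 14, so the median of the 14 stayed below that of all sites.

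The acceptor candidate difference between genotypes turned to 1.03 with the median over sites and to 0.102 with reads summed over sites. That of upstream sites turned to -1.50 with the median and to -0.000717 with at least 30 reads. That of Thr turned to 1.27 with the median, 0.279 with summed reads and 0.993 with no coverage minimum, which adds the tRNA-Thr-CGT-3-1 site. At least 30 reads took the acceptor minus upstream difference to 2.22. The same minimum lowered the excess over other cytosolic tRNA sites from 13.8 to 10.7 points. With a minimum of 20 reads the tRNA-Thr-AGT-4-1 acceptor candidate turned to 2.85, since knockout replicate 3 drops out.

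With 1 library left out, the knockout minus WT values ranged from -2.23 to 0.943 for acceptor candidates, 0.439 to 1.30 for upstream sites, -0.899 to 0.618 for Thr, 0.506 to 2.62 for Cys, -2.95 to 0.224 for the difference between kinds of site and -0.00543 to 0.0304 for the log2 coverage ratio. The acceptor minus upstream difference ranged from 0.680 to 1.95 points. The excess over other tRNA sites ranged from 13.4 to 14.1 points, with exact sign-flip p = 0.0625, the smallest that 5 libraries can give. Coverage calls ranged from 0 to 2 (2 without WT replicate 3). Single sites changed direction at the tRNA-Thr-CGT-2-1 (-0.0621 to 0.426), tRNA-Thr-TGT-3-1 (-0.525 to 0.114) and tRNA-Thr-AGT-4-1 (-9.65 to 2.85) acceptor candidates and at position 68928727 of tRNA-Thr-AGT-1-2 (-0.380 to 1.87). Except where stated, the cause was not tested. Depth limits tRNA-Thr-AGT-4-1 and tRNA-Thr-CGT-3-1 most.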
